A study of Rattus norvegicus with 2 samples.

Results

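The T cell receptor and T cell identity genes were examined in the whole blood of rats given lavender oil (LO, the essential oil of Lavandula angustifolia) and of control rats. The set was a list of 36 genes: the invariant chains of the T cell receptor complex, coreceptors and other surface receptors, cytokine receptors, proximal signalling proteins and transcription factors. Members were found on the array by gene symbol, through the accession that the scanner output gives for each probe, with no use of the measured values. Of the 36 genes, 24 had a probe that could be matched to a current symbol, on 29 probes in all, among 41009 probes of the array and 8898 genes with a symbol. The 12 genes with no matched probe were Cd3e, Cd27, Il7r, Il2rg, Lck, Prkcq, Ptpn22, Tcf7, Tbx21, Foxp3, Nfatc1 and Nfatc2, and no value is given for them.

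The animals were male rats, given as 7 weeks old, with 6 in each group. Rats of the LO group received LO at 5 mg/kg in 10% ethanol into the stomach once daily for 13 days, and control rats received 10% ethanol alone (0 mg/kg LO). The labels name the strain as Wistar in one field and as F334 in another, and the methods name it as Fischer F334. Blood RNA was pooled within each group, and the 2 pools were hybridized together on 2 two-colour Agilent rat whole genome arrays, with LO in Cy5 on array 1 and in Cy3 on array 2. The labels give both heart and portal vein as the source of the blood, and the methods give the heart.

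A T cell recognizes antigen through a clonal receptor whose signal is carried by the CD3 chains and the zeta chain. The coreceptors CD4 and CD8 bring in the kinase Lck, which phosphorylates these chains and lets Zap70 bind. Zap70 in turn phosphorylates the adaptors Lat and Lcp2 (SLP-76), from which calcium, Ras and NF-kB signalling start. CD28 and Icos add costimulation, Ctla4 restrains it, and the receptors for interleukins 2 and 7 govern growth and survival. Transcription factors such as Lef1, Gata3 and Runx3 set the identity of T cells and of their subsets. In blood, T cells are one of several leukocyte classes beside neutrophils, monocytes, B cells and NK cells.

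The second array repeated the first with the dyes of the 2 pools exchanged, so the pair counted as 1 replicate, and no test between conditions could be made. Each ratio is given as LO over control. Signals were normalized within each array and not scaled between arrays. Median signals were 53.6 in LO and 55.6 in control on array 1, and 62.8 and 60.7 on array 2. Statements below on whether the values of the pools overlap therefore mix pool and array differences. The share of all probes whose pools did not overlap is not given, so these statements only describe single probes. The 2 values of a pool are technical readings and hold no spread between rats. The LO part of a probe is the mean of the log2 LO/control ratios of both arrays, and its SD is the spread between these 2 technical measurements. It holds nothing of the spread between rats. The dye part is the half-difference of the same log2 ratios (array 1 minus array 2), positive where LO/control was higher with LO in Cy5. The SD of a probe is fixed by the size of its dye part. It therefore measures how far the ratio moved with the dye swap and is no error of the LO part. In bulk blood, fewer T cells, less RNA per T cell and a change in other cells that express the same genes cannot be told apart.

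Most probes of the T cell genes were detected. Feature Extraction, the scanner's image software, rated every one of the 4 channels well above background for 22 of the 29 probes, or 75.9%, against 37.5% of all probes on the array. Every member probe had a symbol, as did only 10767 of the 41009 probes, and the share among those 10767 was not computed. The 22 member probes stood for 20 genes. These 22 comprised all 3 probes of the receptor complex (Cd3d, Cd3g and Cd247) and 9 of 14 probes of coreceptors and surface receptors. The others were 2 of 3 probes of cytokine receptors, 5 of 6 of signalling proteins and all 3 of transcription factors. No member probe was flagged as an outlier and none was saturated. The probes for Cd4, Cd28 and Thy1, and 1 of 2 probes each for Icos and Il2ra, were not well above background in any channel. Cd40lg and 1 of 2 Fyn probes were well above background only in the Cy5 channel of each array, a pattern that 1437 of the 41009 probes shared, while 1190 probes had it in the Cy3 channel alone. No fold is given for these 7 probes. Their values are in the plot of signals by channel.

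**Figure D1:**
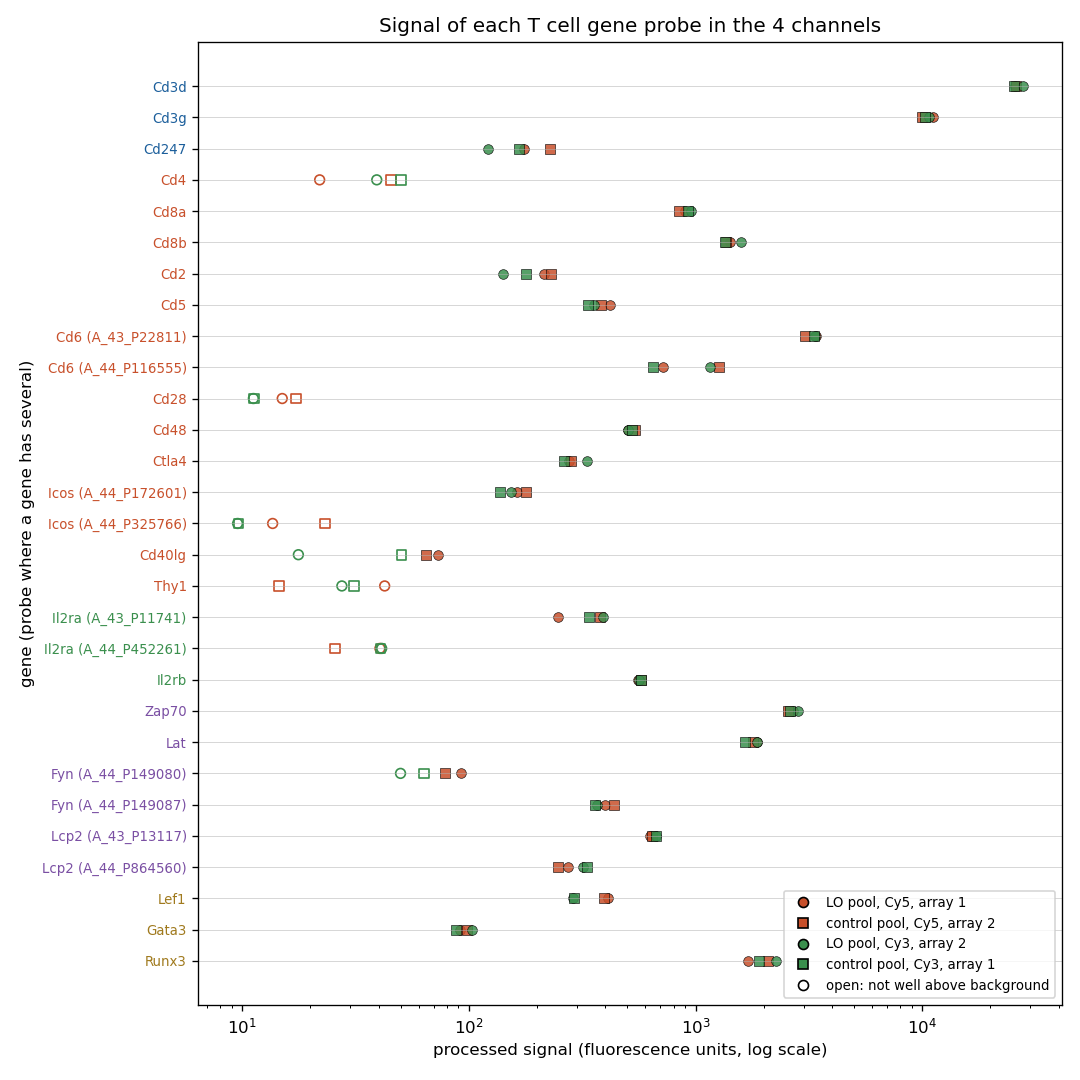
Processed signal (fluorescence units, log scale) of each of the 29 member probes in the LO and control pools, with the Cy5 channels in red and the Cy3 channels in green. Label colours mark the gene groups, open symbols mark channels not well above background, and for most filled rows, such as Cd3g at 9943 to 11130, the 4 channels lie close together.

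None of the 24 T cell genes with a probe was called changed on both arrays. The methods set a p under 0.01 and opposite dye ratios on the 2 chips, without stating that the p had to hold on both, as was required here. At a Feature Extraction p under 0.01 on both arrays with the same pool brighter, 0 of 29 member probes were called, against 0.0219% of all probes (9 of 41009). The software derives this p from the expected error of a single spot, with no correction for how many probes were read. At p under 0.05 the count of member probes was again 0, but no share of all probes is given at that limit. Towards the same dye on both arrays, 0 of 29 were called, against 2.64% of all probes. On array 1 alone, 0 of 29 had p under 0.01, against 5.95% of all probes. On array 2 alone there were 3, Cd2, Cd247 and Cd40lg, or 10.3% against 6.29%, each with the control pool in Cy5 brighter.

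The sizes of the LO parts were small as well. None of the 22 well-measured probes had an LO part over 1.5-fold, against 0.124% of the 15371 probes of the array measured equally well. None had a dye part over 1.5-fold, against 6.49%. Past a lower limit of 0.322 on the log2 scale in either direction, the LO part counted 1 probe, Cd247, or 4.55% against 2.35%. The dye part counted 3 past that limit, Cd2, Cd247 and Lef1, or 13.6% against 23%. The LO parts of the 22 probes ran from -0.42 to 0.16 with a median of 0.04, and over all 15371 probes the median was 0.00. The SD across probes was 0.14 for the members and 0.12 for all probes.

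**Figure D2:**
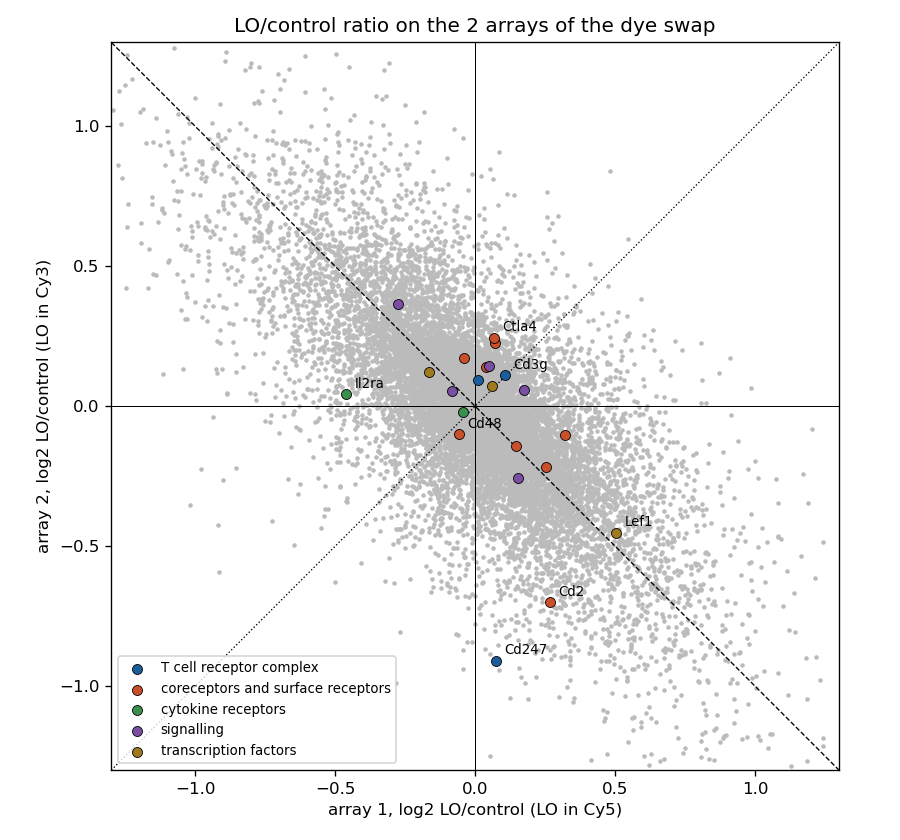
log2 LO/control of array 1 (LO in Cy5) on the horizontal axis and of array 2 (LO in Cy3) on the vertical axis, for the 22 well-measured member probes (coloured by group) over all 15371 such probes (grey, 48 of them beyond the axes). Probes that follow the dye lie along the dashed diagonal and probes that follow the pool along the dotted one, and Cd247 and Cd2 lie furthest below 0 on array 2 among the members.

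The ratios of both arrays went in opposite directions over most of the array. Across the 15371 probes their correlation was -0.70 (Pearson), and across the 22 member probes -0.49. Both are descriptions across probes that share the same 2 hybridizations. Of the 22 member probes, 12 had opposite signs on the 2 arrays, 7 of them brighter in Cy5 and 5 brighter in Cy3. Opposite signs were more common over the array. Of all 15371 probes, 11.7% were higher and 12.7% lower in LO on both arrays, against 36.4% and 9.09% of the member probes.

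In the receptor complex, the chains Cd3d and Cd3g gave ratios close to 1 on both arrays, and the zeta chain Cd247 did not. Cd3g, a CD3 signalling chain, had signals of 11130 and 10730 in the LO pool and 10337 and 9943 in the control pool on arrays 1 and 2. Both LO values were above both control values. The LO part of Cd3g was 0.11 ± 0.0023 on the log2 scale (SD, n = 2 arrays), or 1.08-fold. With the deposited normalization this was the closest match between arrays of the 22 probes. With median centring the LO part of Cd3g was 0.08 and its dye part 0.20. Cd3d, another CD3 chain, read 25540 and 27765 in the LO pool against 25371 and 25994 in the control pool. The 2 pools overlapped, and the LO part was 0.05 ± 0.06 (SD, n = 2 arrays), or 1.04-fold. In the GRCr8 annotation Cd3g, Cd3d and Cd3e are consecutive protein-coding genes.

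Cd247 encodes the zeta chain, which carries most of the receptor's signalling motifs. It read 175 in LO against 166 in control on array 1, and 122 in LO against 229 in control on array 2. LO was thus slightly brighter on array 1 and the dimmer pool on array 2, and the ranges of the pools overlapped. The ratios were 1.05 and 0.532, with Feature Extraction p of 0.788 and 0.00158. The LO part of -0.42 ± 0.69 (SD, n = 2 arrays) corresponds to a control/LO fold of 1.34 and was the member furthest from 0. Its dye part was 0.49, larger than the LO part. With normexp background correction and loess in place of the deposited normalization, the LO part of Cd247 was -0.11. Among the 6996 probes with a mean signal (geometric mean of the 4 channels) under 250, where Cd247 lies, 4.8% had an LO part past that lower limit of 0.322.

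Among the coreceptors, both chains of CD8 were measured and Cd4 was not. Cd8b, the beta chain that pairs with Cd8a on cytotoxic T cells, read 1417 and 1593 in the LO pool and 1348 and 1362 in the control pool. Both LO values exceeded both control values, and the LO part was 0.15 ± 0.11 (SD, n = 2 arrays), or 1.11-fold. Cd8a read 902 and 958 in LO against 928 and 849 in control. Its pools overlapped, with LO the dimmer on array 1 and the brighter on array 2, and the LO part was 0.07 ± 0.15 (SD, n = 2 arrays). Cd8b and Cd8a are adjacent genes in GRCr8. The probe for Cd4, the coreceptor of helper T cells, read 22.0 and 39.2 in LO and 50.0 and 45.3 in control, in no channel well above background. These values do not measure Cd4 in either pool.

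The adhesion and scavenger-type receptors gave mixed signs. Cd2, an adhesion receptor for Cd48 in rodents, read 214 and 142 in LO against 178 and 230 in control. The ratio was 1.20 on array 1 and 0.615 on array 2, where the Feature Extraction p was 0.00544. This was the same order of channels as for Cd247, with Cy5 the brighter on both arrays, and the LO part of -0.22 ± 0.68 (SD, n = 2 arrays) was smaller than the dye part of 0.48. With normexp and loess the LO part of Cd2 was -0.06. Cd5, which damps receptor signalling, read 418 and 355 in LO against 335 and 381 in control, with overlapping pools and an LO part of 0.11 ± 0.30 (SD, n = 2 arrays). Cd48, the ligand of Cd2, read 504 and 502 in LO against 525 and 538 in control. Both LO values lay below both control values, by an LO part of -0.08 ± 0.03 (SD, n = 2 arrays), or 1.06-fold in control over LO.

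Cd6, a receptor for adhesion molecules on antigen-presenting cells and a neighbour of Cd5 in GRCr8, had 2 probes. The first (A_43_P22811) read 3402 and 3358 in LO against 3315 and 3049 in control. Both LO values were the higher, with an LO part of 0.09 ± 0.07 (SD, n = 2 arrays). The second (A_44_P116555) read 715 and 1154 in LO against 646 and 1275 in control. Its 2 arrays differed more than its 2 pools, and its LO part was 0.00 ± 0.20 (SD, n = 2 arrays).

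Of the costimulatory receptors, Ctla4 and 1 of 2 Icos probes were measured in every channel. Ctla4, the inhibitory receptor that competes with Cd28 for its ligands, read 277 and 333 in LO against 264 and 281 in control. On each array LO was the higher, though the LO value of array 1 lay within the control range. The LO part of 0.16 ± 0.12 (SD, n = 2 arrays), or 1.11-fold, was the highest of the 22 probes. Icos, an inducible costimulator, read 163 and 154 in LO against 137 and 179 in control on the probe A_44_P172601, with overlapping pools and an LO part of 0.02 ± 0.33 (SD, n = 2 arrays). Its other probe (A_44_P325766) was dim throughout, at 9.55 to 23.2. Cd28, Ctla4 and Icos are consecutive genes in GRCr8.

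The rest of the surface receptors gave no usable ratio. Cd28, the main costimulatory receptor, read 15.0 and 11.2 in LO and 11.2 and 17.3 in control. Thy1, a marker of T cells in mice that is found mainly on thymocytes and recent emigrants among rat T cells, read 42.5 and 27.5 in LO and 31.0 and 14.5 in control. All 8 of these values were below the level rated well above background. Cd40lg, by which helper T cells activate B cells, read 73.5 in LO in Cy5 and 17.7 in LO in Cy3. The control pool read 64.7 in Cy5 and 50.5 in Cy3, so that each pool was detected only when it carried Cy5. On array 2 the control/LO difference had a p of 0.0094, but the LO channel was not above background there.

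Only 2 of the 4 cytokine receptor genes had a matched probe, the alpha and beta chains of the interleukin-2 receptor. Il2rb, the beta chain, which also serves interleukin 15, read 558 and 564 in LO against 575 and 573 in control. Both LO values were below both control values, but the LO part was only -0.03 ± 0.01 (SD, n = 2 arrays), or 1.02-fold. Il2ra, the high-affinity alpha chain of activated and regulatory T cells, read 247 and 389 in LO against 340 and 378 in control on the probe A_43_P11741. The LO pool held both the lowest and the highest value, and the LO part was -0.21 ± 0.35 (SD, n = 2 arrays). With normexp and loess it was -0.09. The other Il2ra probe (A_44_P452261) read 25.6 to 41.3 and was not well above background in any channel.

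Among the signalling genes, the kinase Zap70 and the adaptor Lat were well measured. Zap70 read 2704 and 2839 in LO against 2612 and 2571 in control. Both LO values were above both control values, and the LO part was 0.10 ± 0.07 (SD, n = 2 arrays), or 1.07-fold. Lat, the membrane adaptor that Zap70 phosphorylates, read 1875 and 1859 in LO against 1661 and 1785 in control. It too had both LO values above both control values, with an LO part of 0.12 ± 0.08 (SD, n = 2 arrays), or 1.08-fold.

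The adaptor Lcp2 and the kinase Fyn showed no common direction. Lcp2 had 2 well-measured probes, and their LO parts were -0.01 ± 0.10 (A_43_P13117) and 0.05 ± 0.45 (A_44_P864560; SD, n = 2 arrays). The first read 631 and 668 in LO against 667 and 643 in control, and the second 275 and 318 against 332 and 246. In both the pools overlapped. Fyn, a Src-family kinase related to Lck, read 401 and 367 in LO against 360 and 439 in control on the probe A_44_P149087, with an LO part of -0.05 ± 0.29 (SD, n = 2 arrays). Its second probe (A_44_P149080) read 92.8 and 78.1 in Cy5 and 63.3 and 50.0 in Cy3, and only the Cy5 values were well above background.

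Of the 8 transcription factors, 3 were measured. Lef1, a partner of beta-catenin in naive T cells, read 411 and 289 in LO against 290 and 396 in control. The 2 Cy5 values were high and the 2 Cy3 values low in either pool, so the LO part was 0.03 ± 0.68 (SD, n = 2 arrays) while the dye part was 0.48. The Feature Extraction p was 0.0244 and 0.0427, which made Lef1 the 1 member probe past p 0.05 on both arrays, towards the same dye. The share of all probes past that limit is not given. Gata3, which directs T cell development and the type 2 helper fate, read 91.9 and 103 in LO against 88.1 and 97.8 in control, with an LO part of 0.07 ± 0.01 (SD, n = 2 arrays). On each array LO was the higher, though the pools overlapped across arrays. Runx3, which supports the cytotoxic lineage, read 1707 and 2267 in LO against 1913 and 2085 in control. Here the LO pool held the lowest and the highest value, and the LO part was -0.02 ± 0.20 (SD, n = 2 arrays).

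**Figure D3:**
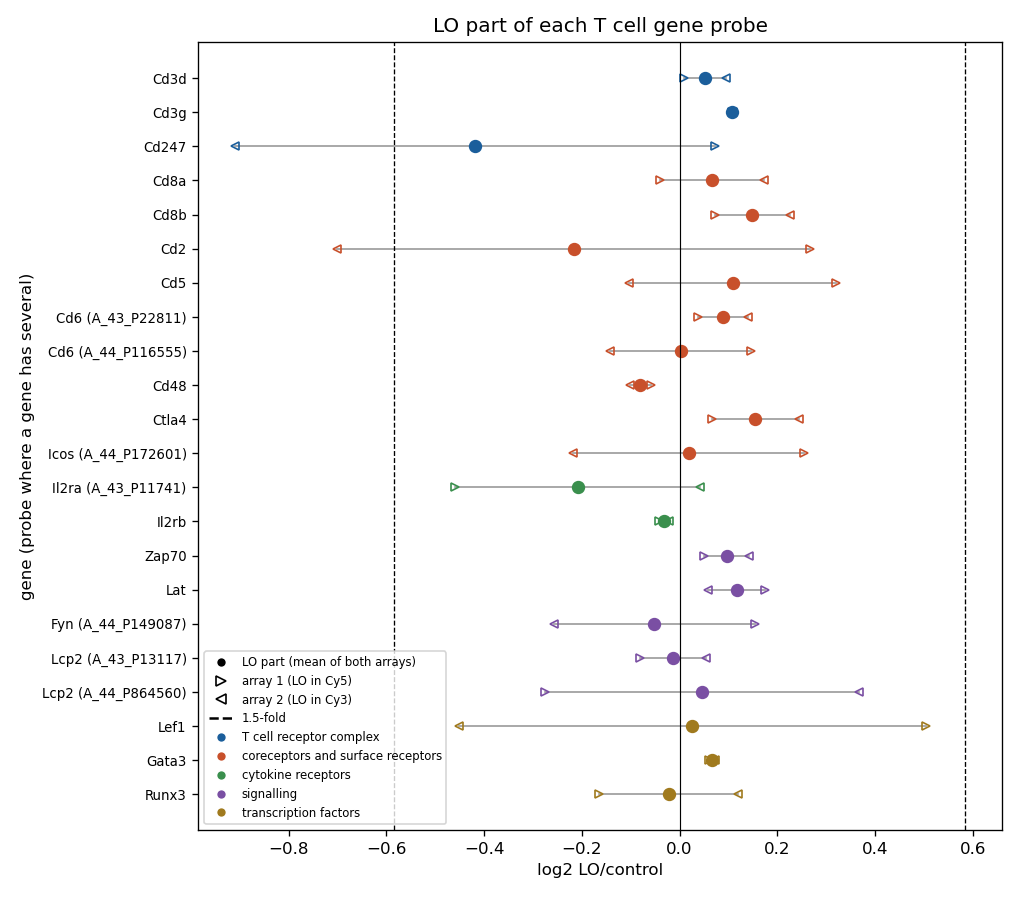
LO part (filled circles, log2 LO/control) of the 22 member probes well above background in all 4 channels, with the value of array 1 (right-pointing triangles) and array 2 (left-pointing triangles) and dashed lines at 1.5-fold. Colours mark the gene groups. No LO part reaches a dashed line, and only Cd247 and Cd2 reach one on a single array, at -0.91 and -0.70 on array 2.

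The signs of the ratios were unevenly split. LO was the brighter pool on both arrays for 8 of 22 member probes, or 36.4%, against 11.7% of the 15371 probes. These were Cd3d, Cd3g, Cd8b, Ctla4, Gata3, Lat, Zap70 and 1 of 2 Cd6 probes. LO was the dimmer pool on both arrays for 2 of 22, Cd48 and Il2rb, or 9.09%, against 12.7%. This count depended on the scaling: it was 3 higher and 3 lower when the background-subtracted signals were centred on the array median, and 7 higher and 1 lower with normexp and loess. Of all probes, 7.83% and 13.7% were higher on both arrays under these settings. Whether these shifts exceed the spread between rats could not be tested, since each group was 1 pool.

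The probes with a mean signal of 1000 and over held most of this pattern. Of the 7 such member probes, all but Runx3 were higher in LO on both arrays (Cd3d, Cd3g, Cd6, Cd8b, Lat and Zap70), or 85.7%, against 12.7% of the 3564 probes in that range. The LO parts of the 7 ran from -0.02 to 0.15 with a median of 0.10, a 1.07-fold difference, and that of all 3564 probes was 0.00 with an SD of 0.05. After median centring, 1 of the 7 was higher on both arrays (Cd8b), against 1.32% of the 3564 probes, and the median LO part was 0.05 against -0.05. Cd3d turned to -0.01 there. After normexp and loess, 5 of the 7 were higher on both arrays, against 13.6%, and the medians were 0.09 and 0.00. The bounds of 250 and 1000 were chosen after the values were seen. Below them the spread was wider: the SD of the LO part over all probes was 0.16 under 250 and 0.09 from 250 to 1000, and 0.40 and 0.20 for the dye part.

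The wider T cell receptor pathway was read from a list of 53 further genes, among them kinases, phosphatases, adaptors and downstream transcription factors. Of these, 33 had a probe, on 37 probes in all. None of the 37 was called at p under 0.01 on both arrays towards the same pool. Towards the same dye 2 were called, for Jun and Satb1, against the 2.64% of all probes, and neither of these 2 was well above background in every channel. The 28 probes that were so, of 26 genes, held no LO part over 1.5-fold, and 16 of the 28 lay above 0 and 12 below. Their median was 0.02, and -0.01 with median centring. The LO part furthest from 0 was that of Fos, an immediate early transcription factor, at -0.46. Fos read 96.2 in LO and 88.3 in control on array 1, and 80.5 and 166 on array 2, so that, as for Cd247, the difference lay in array 2.

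Markers of other blood cells were read in the same way, to show what moved beside the T cell genes. Each of the 7 marker lists, T cells included, had probes that were detected in every channel. The T cell markers are themselves members. Among their 9 well-measured probes, 7 LO parts lay above 0 (5 with median centring, 6 with normexp and loess) and the median was 0.09 (0.03 with median centring). Over all 15371 probes, 48.7% of LO parts lay above 0, 42.8% with median centring and 50.4% with normexp and loess. The summed signal of the 9 probes was 46174 and 48324 in LO against 44621 and 45457 in control, and Cd3d and Cd3g made up 79.5% of it. Cd28 was the 1 T cell marker with a probe that was not well above background.

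The neutrophil markers lay on the same side as the T cell markers, and the monocyte markers on the other. Of 7 neutrophil probes, 5 were well above background in every channel, and those of Lcn2 and Mmp9 were not. All 5, for S100a8, S100a9, Ncf1, Cxcr2 and Mmp8, had LO parts above 0, between 0.05 and 0.12. With median centring 4 of the 5 did. Only 3 of the 5 (S100a8, Ncf1 and Cxcr2) were higher in LO on both arrays. The summed signal of the 5 was 32625 and 33292 in LO against 32014 and 30476 in control, 96.4% of it from S100a9 and S100a8. All 5 monocyte probes described here, for Lyz2, Csf1r, Cd68, Cd14 and Cx3cr1, had LO parts below 0, between -0.20 and -0.06, and below 0 with median centring and with normexp and loess too. Of the 5, Lyz2 and Csf1r were lower in LO on both arrays. Ccr2 had no probe well above background in every channel. With median centring 42.8% of all 15371 probes lay above 0. Among probes with a mean signal of 1000 and over, such as Lyz2 and Cd68 but not the other monocyte probes, 16.2% did. The summed signal of the 5 monocyte probes was 28592 and 30767 in LO against 33180 and 34498 in control, 89.5% of it from Lyz2 alone. The neutrophil median was 0.09 with median centring and 0.10 with normexp and loess, and the monocyte median -0.16 and -0.09.

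Of 5 B cell probes, 2 were well above background in every channel, for Cd79b and Fcer2. Both were at 0.10 and higher in LO on both arrays. The median of the 2 was 0.05 with median centring and 0.06 with normexp and loess. Blk and Cd72 had no probe so measured. Blk was called at p under 0.01 on both arrays towards the same dye, as were 2.64% of all probes. Of the 8 NK cell probes, 2 lay above 0 and 6 below, with a median of -0.03 (-0.06 with median centring, -0.05 with normexp and loess). This list includes Prf1 and Gzmb, which cytotoxic T cells express too. The median was 0.00 for 5 platelet probes (-0.04 with median centring, 0.02 with normexp and loess) and -0.08 for 5 red cell probes (-0.13 with median centring). No well-measured probe of the 7 lists had an LO part over 1.5-fold. The part of these cell types in the T cell values was not tested.

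**Figure D4:**
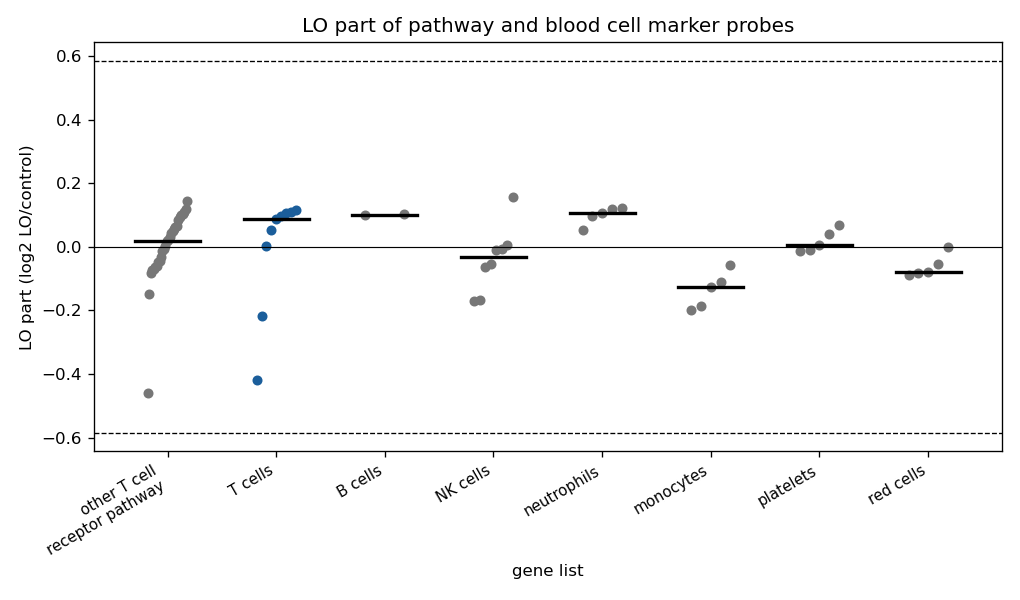
LO part (log2 LO/control) of each probe well above background in all 4 channels, for 53 further pathway genes and for the marker lists of 7 blood cell types, with the median of each list as a black bar and dashed lines at 1.5-fold. The T cell markers (blue) and neutrophil markers lie mostly above 0 (5 of 9 and 4 of 5 with median centring), all 5 monocyte markers lie below it, and no point reaches a dashed line.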

How the data were processed

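The authors pooled blood RNA by group, labelled it with a linear amplification kit and processed the scans with Agilent Feature Extraction 11.0.1.1. The deposited scanner output holds intensity columns (median, background-subtracted and LOWESS-normalized processed signals), a log10 ratio (Cy5 over Cy3) and the p-value of the software's error model. The deposited value table equalled the log10 ratio of the processed signals within 0.0001 on all 43379 features of both arrays.

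Control spots and 338 features were excluded, the latter for a flag of non-uniformity or of a population outlier. Spots of a probe were averaged on the log2 scale, and each of the 29 member probes had 1 spot. Ratios were turned to LO over control by the labelled dyes. Symbols came from RefSeq accessions through a GRCr8 gene table. Positions are not given, since the array was designed on another build. Members and gene lists were chosen with earlier results of these data known. All were named by list, and other genes only by counts, by the LO part furthest from 0 in the pathway list, or after their values were seen. 1 marker of the lists is not reported here. The split into LO and dye parts was run on simulated ratios built as the same sum, with equal noise at every signal. That run checks the arithmetic only. Alternatives were the log ratio column, median centring, normexp (offset 50) with loess (limma 3.58.1, R 4.3.3), other filters, fold and p limits, and single arrays. The number of arrays limits only the technical precision, and the pooling hides the spread between rats.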

Additional observations from a re-analysis of the deposited data

How the results depend on the processing

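The call counts rest on 1 pool per group, and leaving out a pool or pairing replicates could not be done. No paired analysis was possible because both arrays carry the same 2 pools and count as 1 replicate. The count of 0 member probes with an LO part over 1.5-fold was 0 under every other scaling, with flagged features kept, with 1 value per gene and on array 1 alone. It was 2 on array 2 alone, 3 with no filter on dim probes, 1 with 1 channel well above background on each array and 1 at a limit of 0.322 on the log2 scale. The count of 0 for the dye part became 3, 2 and 3 under the last 3 of these settings, and it cannot be computed from a single array. At the limit of 0.322 the shares of all well-measured probes were 2.35% for the LO part and 23% for the dye part. For the other settings no share of all probes is given, so those counts cannot be judged against the array. At p under 0.05, 1 member probe was called towards the same dye, with no share of all probes to set beside it. The median LO part of 0.036 was 0.023 with median centring and 0.0070 with normexp and loess. It was 0.018 with no filter on dim probes and 0.022 with 1 channel well above background on each array. For mean signals of 250 and over it was 0.049, a setting chosen after seeing the data. The median log2 LO/control ratio was 0.063 on array 1 alone and 0.056 on array 2 alone. Ratios of a single array, also in the counts above, still hold the dye part. The sign of a member's LO part changed for 2 of 22 probes with median centring (Cd3d and 1 Cd6 probe) and for 4 with normexp and loess (the same Cd6 probe, Il2rb, Cd8a and 1 Lcp2 probe). Nothing is known of the spread between rats, and below a mean signal of 250 the ratios were widest. The cause of these dependences was not tested.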
